A study of Mus musculus with 15 samples.

Results

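Cells that scored negative for Endoglin protein and positive for an Endoglin reporter (ENG-FDG+) were compared with cells that scored positive for the protein and negative for the reporter (ENG+FDG-). Both fractions carry the label HEI, whose meaning is not given in the sources used here, and both were sorted from differentiated mouse embryonic stem cells of the -8/P line. In this line LacZ, the gene of bacterial beta-galactosidase, is driven by the promoter of Eng joined to its enhancer at -8 kb, and FDG is a substrate that fluoresces once beta-galactosidase has split it. The 6 libraries, 3 of each fraction, were taken by their labels from the 15 libraries of the series and paired by replicate number. The series also holds 3 libraries of the ENG+FDG+ fraction of the same line, used below, and FLK1+ cells of another reporter line with and without LacZ activity, which entered the filter, the block and the estimate of spread of the fit but neither side of a comparison. Both sort marks differ between the 2 fractions, so a difference tied to surface Endoglin and one tied to the reporter cannot be told apart here. Each fraction is a sorted population of 1 reporter line, and neither the gates, the culture days nor the number of lines or clones is given in the sources used here. Whether the replicates came from separate cultures is not labelled, and a p value here reflects only how far these libraries vary, which may be technical.

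Blood first forms from haemogenic endothelium, endothelial cells that lose their endothelial programme and take up a blood programme in the endothelial-to-haematopoietic transition. RUNX1 is the transcription factor needed for this step, and GFI1 and GFI1B, which it activates, are known to repress endothelial genes during it. Endoglin, the product of Eng, is an accessory receptor for BMP and TGF-beta ligands on endothelial and early blood-forming cells. The series describes the cells that the promoter with the -8 kb enhancer marks as positive for TIE2 and c-KIT and negative for CD41. These are the products of Tek, Kit and Itga2b.

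The 6 libraries held 10665731 to 16337785 counts and 13954 to 15996 genes with at least 1 read. A count of 0 in them allows up to 3 reads, or 0.182 to 0.289 CPM (counts scaled to library size), by counting error only. Replicate 1 of each fraction differed from replicates 2 and 3: ribosomal precursor RNA (Rn45s) took 3.38% of the counts in ENG-FDG+ replicate 1 and 1.40% in ENG+FDG- replicate 1, against 0.528% to 0.64%. Log2 CPM of replicates 2 and 3 correlated at 0.989 and 0.99 within the 2 fractions, and those of replicate 1 with the others at 0.864 to 0.933. Levels of a gene are given as CPM in replicates 1, 2 and 3 in that order, and differences as log2 of ENG-FDG+ over ENG+FDG- with their standard error (SE) and a Benjamini-Hochberg adjusted p from the edgeR quasi-likelihood test, which pairs libraries by replicate number and calls a gene below 0.05. Genes whose ENG-FDG+ over ENG+FDG- difference is given below with no value from the fit without the block had an adjusted p above 0.05 in that fit. CPM is not divided by gene length, so levels are compared between libraries and not between genes.

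Promoters of 4 genes on which the comparison turns are shown because 3 of them, Eng and the endothelial surface genes Clec14a and Robo4, fell together while Runx1 rose. Each sequence runs 5′ to 3′ on the gene's strand from 250 bases before to 30 bases after the start site of RefSeq (GRCm38.p6), and capitals mark the ETS motif CAGGAA or its reverse complement. They are Eng at chr2:32646345-32646624 (plus strand), Clec14a at chr12:58269229-58269508 (minus strand), Robo4 at chr9:37401722-37402001 (plus strand) and Runx1 at chr16:92826045-92826324 (minus strand).
Eng: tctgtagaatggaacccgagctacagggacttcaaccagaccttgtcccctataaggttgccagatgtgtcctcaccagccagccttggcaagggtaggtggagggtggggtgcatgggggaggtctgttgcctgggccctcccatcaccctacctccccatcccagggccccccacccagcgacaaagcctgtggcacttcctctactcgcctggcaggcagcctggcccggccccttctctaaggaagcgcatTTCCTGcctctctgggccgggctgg
Clec14a: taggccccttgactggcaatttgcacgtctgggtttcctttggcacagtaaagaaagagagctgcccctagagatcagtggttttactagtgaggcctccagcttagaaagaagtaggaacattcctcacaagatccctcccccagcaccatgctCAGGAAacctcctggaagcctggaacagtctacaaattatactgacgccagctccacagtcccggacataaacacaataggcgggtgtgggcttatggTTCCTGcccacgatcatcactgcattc
Robo4: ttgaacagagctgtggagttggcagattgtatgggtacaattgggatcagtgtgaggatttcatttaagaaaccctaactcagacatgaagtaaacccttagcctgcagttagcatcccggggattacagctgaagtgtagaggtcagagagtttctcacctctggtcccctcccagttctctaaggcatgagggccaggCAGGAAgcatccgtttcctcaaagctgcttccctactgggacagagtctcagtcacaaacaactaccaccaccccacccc
Runx1: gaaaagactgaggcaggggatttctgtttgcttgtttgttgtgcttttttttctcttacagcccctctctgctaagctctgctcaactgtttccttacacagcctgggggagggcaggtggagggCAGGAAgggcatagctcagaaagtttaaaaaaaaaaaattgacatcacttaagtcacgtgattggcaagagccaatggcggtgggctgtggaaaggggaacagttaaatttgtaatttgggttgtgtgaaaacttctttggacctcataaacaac
CAGGAA stood 2 times in the Clec14a window and 1 time in each of the other 3. On either strand 28.7% of 32851 mouse promoter windows of this length hold it. The GATA motif AGATAA, found in 10.7% of windows, and the RUNX motif TGTGGT, found in 15.6%, were not in these 4 windows. A match is a run of letters and not a binding site.

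Of 13662 genes tested, 1515 (11.1%) differed between the fractions: 743 (5.44%) rose and 772 (5.65%) fell in ENG-FDG+ cells. Changes of at least 2-fold numbered 233 up and 361 down. The CPM of the 2 fractions did not overlap in 840 of the 1515 genes (55.4%), against 14.6% of all genes tested, and 1499 had the same sign in all 3 same-numbered pairs. The genes were called by a test that pairs these same libraries, so neither count is independent of the calls. The number of calls rested on the pairing and on the libraries in the fit. With only the 6 libraries compared 208 genes passed, 52 up and 156 down, among them 10 of the 20 genes with the largest changes. Without the replicate block 48 genes passed (0.351%, 21 up or 0.154% and 27 down or 0.198%), all 48 among the 1515, and the biological coefficient of variation was 0.477 in place of 0.199. Leaving out ENG+FDG- replicate 1, 2 or 3 left 537, 888 or 671 calls, and 409 of the 1515 were called without each of the 6 libraries in turn. A lower level in bulk RNA can come from fewer cells that express a gene or from less RNA per cell, which cannot be told apart here.

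**Figure D1:**
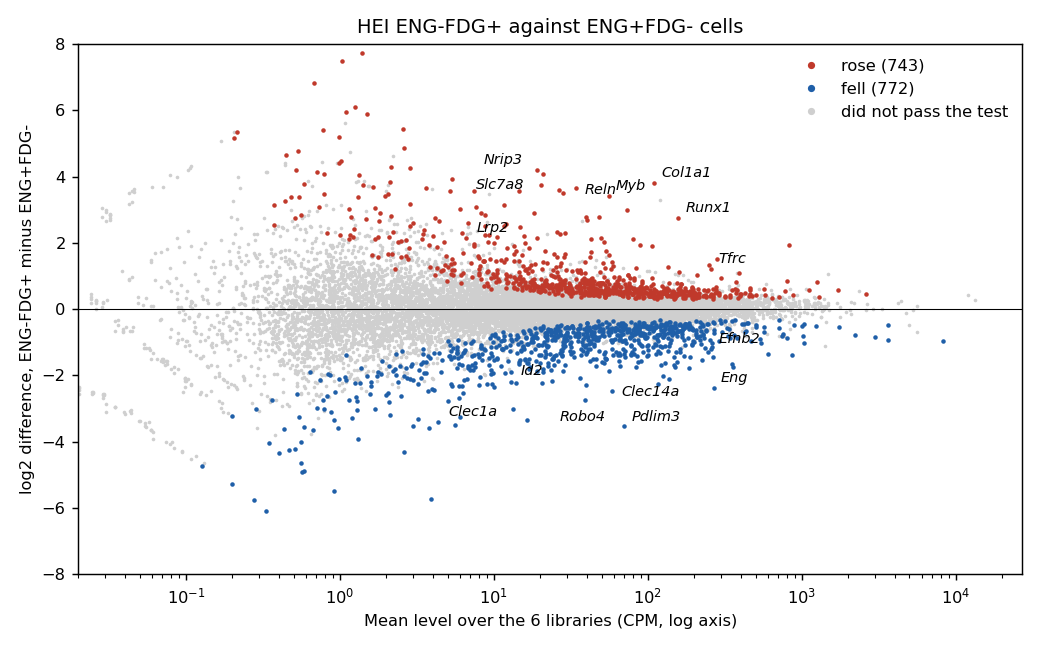
Each point is 1 of 13662 genes, placed by its mean CPM over the 6 libraries (log axis) and its log2 difference, ENG-FDG+ minus ENG+FDG-. Genes that rose (743, red) and fell (772, blue) are in similar number, with Runx1 above 0 and Eng, Clec14a and Robo4 below it.

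Eng, which encodes the protein used for sorting, checks the labels. It stood at 161, 39.4 and 45.1 CPM in ENG-FDG+ and at 962, 184 and 218 CPM in ENG+FDG- cells. Every ENG-FDG+ library was below every ENG+FDG- library, and the sorted-negative cells were not free of the transcript. Eng fell by 2.37 ± 0.25 on the log2 scale, 5.17-fold lower (adjusted p = 0.000138). Without the block the adjusted p was 0.337, with replicate 1 of both fractions several times above replicates 2 and 3. Exons of Eng (chr2:32646595-32682669, plus strand, GRCm38) overlap those of Fpgs on the other strand. The strand setting of the counting is not given, so a part of these reads could be from Fpgs. The transcript of the reporter itself was not analysed here. Tek, Kit and Itga2b were present in all 6 libraries, at 259 to 843 CPM, 82.1 to 170 CPM and 36.1 to 86.5 CPM. These are levels of RNA and do not show whether TIE2, c-KIT or CD41 protein was on the cells. The ENG+FDG- libraries are of cells that scored negative for the reporter.

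Endothelial surface genes were among the largest falls. Clec14a, a C-type lectin domain protein of endothelium, stood at 29.4, 13.1 and 12.3 CPM in ENG-FDG+ and at 122, 71.8 and 102 CPM in ENG+FDG- cells. Its 2 groups did not overlap, and it fell by 2.47 ± 0.24 (adjusted p = 7.71e-05; 0.0278 without the block). Robo4, a roundabout receptor that stabilizes vessels, stood at 14.7, 5.1 and 5.45 CPM against 157, 22.1 and 30.6 CPM and fell by 2.74 ± 0.32 (adjusted p = 0.000236; 0.259 without the block). Its replicate 1 was the highest library of each fraction, and the fractions did not overlap. Clec1a, another C-type lectin receptor of endothelium, stood at 1.44, 4.52 and 3.07 CPM against 24.4, 19.1 and 27.4 CPM and fell by 3.02 ± 0.37 (adjusted p = 0.000349; 0.0487 without the block). Ly6a, whose product is the stem cell antigen SCA-1, stood at 8.06, 0.385 and 1.28 CPM against 60.9, 11.4 and 17.1 CPM and fell by 3.34 ± 0.44 (adjusted p = 0.000522; 0.207 without the block), and by 4.41 without ENG-FDG+ replicate 1. These 4 genes were also called without each of the 6 libraries in turn.

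Of the 39 genes of the wider endothelial list, all tested, 19 fell, 1 rose and 19 did not pass, against 5.65% and 5.44% of all genes, and the median difference of the list was −0.955 against 0.036 over all genes. Eng, whose product was used for sorting, is among the 19 that fell, and its fall is not independent of the sort. Emcn, the sialomucin endomucin, stood at 5.26, 7.89 and 7.58 CPM against 45.3, 24.4 and 32.7 CPM and fell by 2.24 ± 0.37 (adjusted p = 0.00235). Cldn5, a tight junction protein, was low throughout, at 0.933, 0.577 and 0.937 CPM against 12.6, 2.2 and 2.08 CPM, and its call (adjusted p = 0.0444) ended without any library except ENG-FDG+ replicate 3. Kdr, the VEGF receptor FLK1, stood at 404, 671 and 640 CPM against 892, 954 and 960 CPM and fell by 0.76 ± 0.16 (adjusted p = 0.00885; 0.0537 without ENG+FDG- replicate 1). Its fractions did not overlap.

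Cdh5, Pecam1 and Tek missed the threshold. Cdh5 (VE-cadherin) stood at 841, 876 and 839 CPM against 2838, 1495 and 1571 CPM (−1.11 ± 0.35, adjusted p = 0.0568). Pecam1, an adhesion protein of vessels and platelets, stood at 384, 350 and 335 CPM against 785, 507 and 498 CPM (−0.70 ± 0.26, adjusted p = 0.0964), and Tek, the angiopoietin receptor TIE2, at 259, 554 and 525 CPM against 587, 843 and 780 CPM (−0.77 ± 0.27, adjusted p = 0.0848). In each of these 3 genes all ENG-FDG+ libraries lay below all ENG+FDG- libraries. All 3 passed by DESeq2 (adjusted p = 0.0468, 0.0423 and 0.0267 for Cdh5, Pecam1 and Tek) and with the 9 HEI libraries alone (edgeR adjusted p = 0.00769, 0.00722 and 0.00803). In replicates 2 and 3 alone Cdh5 (adjusted p = 1.07e-08) and Tek (adjusted p = 7.48e-07) passed and Pecam1 (adjusted p = 0.0707) did not. None of the 3 passed in edgeR with any 1 of the 6 libraries left out. The adjusted p was then 0.0792 to 0.202 for Cdh5, 0.0854 to 0.273 for Pecam1 and 0.111 to 0.228 for Tek. Etv2, an ETS factor that starts the endothelial and blood programme, was the endothelial gene that rose, at 11.2, 5 and 5.45 CPM against 6.61, 1.85 and 2.08 CPM (1.18, adjusted p = 0.0141), with overlapping fractions, and its call ended without ENG-FDG+ replicate 3, ENG+FDG- replicate 1 or ENG+FDG- replicate 2. Over the list, 33 genes fell when replicates 2 and 3 alone were fitted, 12 without ENG+FDG- replicate 1 and 2, Clec14a and Pcdh12, without the block. Over all genes 14.6% fell in replicates 2 and 3 alone, 311 of 14068 without ENG+FDG- replicate 1 and 0.198% without the block.

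In the arterial and Notch list 7 of 22 genes tested fell, 1 rose and 14 did not pass (median −0.794). Set beside this and the venous list, 5.65% of all genes fell and 5.44% rose. Efnb2, the ligand ephrin-B2 of arterial endothelium, stood at 135, 179 and 162 CPM against 380, 344 and 346 CPM and fell by 1.19 ± 0.14 (adjusted p = 0.000259). Gja5, an arterial connexin, had 3, 0 and 1 reads in ENG-FDG+ cells against 336, 21 and 11 reads in ENG+FDG- cells (adjusted p = 0.00124). It was near the counting floor in 1 fraction and spread widely in the other, and its exons overlap those of Gpr89. Notch4, the endothelial Notch receptor, stood at 20.3, 6.25 and 6.56 CPM against 69.6, 13 and 14.6 CPM and fell by 1.36 ± 0.27 (adjusted p = 0.00614), and Jag2, a Notch ligand, at 5.6, 3.37 and 3.92 CPM against 36.5, 7.93 and 9.53 CPM, by 1.72 ± 0.41 (adjusted p = 0.0173). Both calls ended without ENG+FDG- replicate 1, that of Jag2 also without its replicate 3. The gene that rose was Notch2 (0.79, adjusted p = 0.0125), a call that ended without ENG+FDG- replicate 1 or 3. In the venous and lymphatic list 4 of 8 fell and none rose (median −0.53), led by Emcn and by Nr2f2, the venous factor COUP-TFII, at 3.56, 13.4 and 9.29 CPM against 14.5, 35.3 and 49.1 CPM (fell by 1.90 ± 0.39, adjusted p = 0.00906). None of the genes of these 2 lists passed without the block, and 4 arterial genes fell without ENG+FDG- replicate 1.

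Runx1 and 6 other transcription factors of blood formation rose, of 22 tested, against 5.44% of all genes. Runx1 stood at 234, 302 and 283 CPM in ENG-FDG+ cells and at 18.7, 51.6 and 55.9 CPM in ENG+FDG- cells. The lowest ENG-FDG+ library was far above the highest ENG+FDG- library. Runx1 rose by 2.76 ± 0.25, 6.75-fold (adjusted p = 6.59e-05; 0.0103 without the block), and by 2.39 to 3.02 when 1 library was left out. Exons of Runx1 (chr16:92601466-92826149, minus strand, GRCm38) overlap those of Gm26626 on the other strand.

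Of the 22 early haematopoietic factors, 7 rose, 1 fell and 14 did not pass (median 0.383), against 5.44% of all genes up and 5.65% down. Myb, needed for blood progenitors, stood at 60, 119 and 122 CPM against 0.91, 15.9 and 16.1 CPM and rose by 3.43 ± 0.56 (adjusted p = 0.00258; 0.141 without the block). Ikzf1, the lymphoid and erythroid factor Ikaros, stood at 19.1, 55.2 and 55.8 CPM against 4.91, 10.3 and 9.79 CPM and rose by 2.31 ± 0.24 (adjusted p = 9.76e-05; 0.085 without the block). Replicate 1 was the lowest library of each fraction for both genes, and the fractions did not overlap. Gfi1b stood at 17.7, 15.1 and 12.6 CPM against 4.19, 3.97 and 1.73 CPM and rose by 2.24 ± 0.38 (adjusted p = 0.00244; 0.103 without the block). Its paralogue Gfi1 stood at 16, 20.1 and 23.9 CPM against 2.67, 9.34 and 12.4 CPM, which did not overlap. Gfi1 narrowly missed the threshold (1.42 ± 0.44, adjusted p = 0.0537; 0.021 by DESeq2 and 0.000122 in replicates 2 and 3 alone). With any 1 of the 6 libraries left out it did not pass either (edgeR adjusted p 0.0761 to 0.236). Ikzf2, Lyl1 and Etv6 were the other genes that rose, of which Lyl1 was not called without ENG+FDG- replicate 1 and Etv6 without any library except ENG-FDG+ replicate 1.

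Other factors of the list did not pass or fell. Tal1, the SCL factor of blood specification, stood at 87.7, 266 and 281 CPM against 69.5, 139 and 150 CPM (0.76 ± 0.26, adjusted p = 0.0751). Tal1 passed without ENG-FDG+ replicate 1 (adjusted p = 0.0243), by DESeq2 (adjusted p = 0.0303) and in replicates 2 and 3 alone (adjusted p = 2.4e-08). It did not pass without any other of the 6 libraries (edgeR adjusted p 0.159 to 0.236) or with the 9 HEI libraries alone (edgeR adjusted p = 0.0576). Gata2 stood at 178, 63.4 and 69.9 CPM against 99.7, 60.1 and 68.7 CPM (0.34 ± 0.22, adjusted p = 0.338), and the fractions overlapped for both genes. Lmo2, the bridging partner of TAL1 and GATA factors, stood at 34.1, 140 and 116 CPM against 41.9, 92.4 and 86.8 CPM (0.26, adjusted p = 0.318). Mecom, a zinc finger factor of stem cells and of endothelium, was the gene of this list that fell (−1.11, adjusted p = 0.0217), and its call ended without ENG-FDG+ replicate 3 or any ENG+FDG- library.

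Surface and signalling genes of blood cells were mixed. Of 26 genes 22 were tested, 4 rose, 2 fell and 16 did not pass (median 0.448), against 5.44% of all genes up and 5.65% down. Without any 1 of the ENG+FDG- libraries 2 rose and none fell. Gpr56 (also named Adgrg1), an adhesion receptor of blood stem cells, stood at 150, 46.9 and 60.8 CPM against 12.3, 8.72 and 11.3 CPM and rose by 2.78 ± 0.37 (adjusted p = 0.000656; 0.158 without the block). Was, the actin regulator of blood cells mutated in Wiskott-Aldrich syndrome, stood at 4.67, 10.2 and 8.26 CPM against 1.76, 2.38 and 1.39 CPM and rose by 2.04 ± 0.38 (adjusted p = 0.00495; 0.0453 without the block). Both pairs of groups were apart. Itga2b, the integrin chain CD41, stood at 86.5, 72.2 and 69.6 CPM against 75.9, 37.8 and 36.1 CPM with overlapping fractions, and its rise of 0.71 ± 0.19 (adjusted p = 0.032) was called without ENG-FDG+ replicate 1 (adjusted p = 0.00222) and not without any other library. Kit, the stem cell factor receptor, stood at 148, 170 and 170 CPM against 82.1, 136 and 134 CPM (0.50 ± 0.21, adjusted p = 0.148). Ptprc, whose product CD45 is a marker of blood cells, had 6, 0 and 0 reads against 2, 0 and 2 reads and was not tested.

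Of 18 erythroid genes 10 were tested, of which 5 rose and none fell (median 0.942), against 5.44% of all genes up and 5.65% down. Hbb-bh1, an embryonic beta-like globin, stood at 52.4, 22.8 and 22.6 CPM against 4, 3.79 and 3.81 CPM and rose by 2.90 ± 0.38 (adjusted p = 0.000507; 0.135 without the block). Tfrc, the transferrin receptor, stood at 105, 506 and 474 CPM against 50.3, 213 and 190 CPM and rose by 1.21 ± 0.12 (adjusted p = 7.05e-05; 0.704 without the block). The fractions of Tfrc overlapped, with replicate 1 low in each of them. Gata1, the erythroid and megakaryocyte factor, had 41, 10 and 24 reads in ENG-FDG+ cells and 1, 0 and 0 reads in ENG+FDG- cells (adjusted p = 0.000781; 0.0252 without the block). Hba-x, an embryonic alpha-like globin, stood at 242, 2.5 and 6.22 CPM against 43.9, 0.705 and 1.65 CPM and rose by 2.14 ± 0.37 (adjusted p = 0.00303; 0.0664 by DESeq2), and by 1.51 without ENG-FDG+ replicate 1. Hbb-y, an embryonic beta-like globin, stood at 70.2, 3.46 and 4.26 CPM against 14.9, 1.5 and 0.693 CPM and rose by 2.01 ± 0.40 (adjusted p = 0.00707), a call that ended without ENG+FDG- replicate 1. The fractions of both genes overlapped, with replicate 1 the highest library of each, and reads of globin genes may be split between near-identical copies. No read was counted for the adult genes Hba-a1 and Hba-a2 in either fraction, which does not show absence where reads fit more than 1 copy. Klf1, a later erythroid factor, had 0, 0 and 1 reads against 5, 0 and 0.

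Of 17 megakaryocyte genes 8 were tested, 6 rose and none fell (median 1.252). Set beside this and the myeloid list, 5.44% of all genes rose and 5.65% fell. Nfe2, a factor of platelet release, stood at 12.1, 8.94 and 11 CPM against 2.67, 1.94 and 2.68 CPM and rose by 2.14 ± 0.29 (adjusted p = 0.000577; 0.0378 without the block). Itgb3, the integrin chain that pairs with CD41, stood at 306, 61.6 and 69.8 CPM against 56.6, 19.7 and 21.1 CPM and rose by 1.94 ± 0.36 (adjusted p = 0.00574; 0.448 without the block). Neither gene overlapped between the fractions, and Pf4, a platelet chemokine, had 0, 0 and 1 reads against 8, 0 and 1 reads and was not tested. Leaving out ENG+FDG- replicate 1 or 3 left 2 megakaryocyte genes that rose, and leaving out replicate 2 of either fraction left 3. Of 18 myeloid genes 5 were tested, and Mpo, the granule enzyme myeloperoxidase, rose (10.6, 20.9 and 21.6 CPM against 5.7, 6.43 and 6.49 CPM, adjusted p = 0.0342). Among the fits with 1 library left out, the call of Mpo held only without ENG-FDG+ replicate 1.

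**Figure D2:**
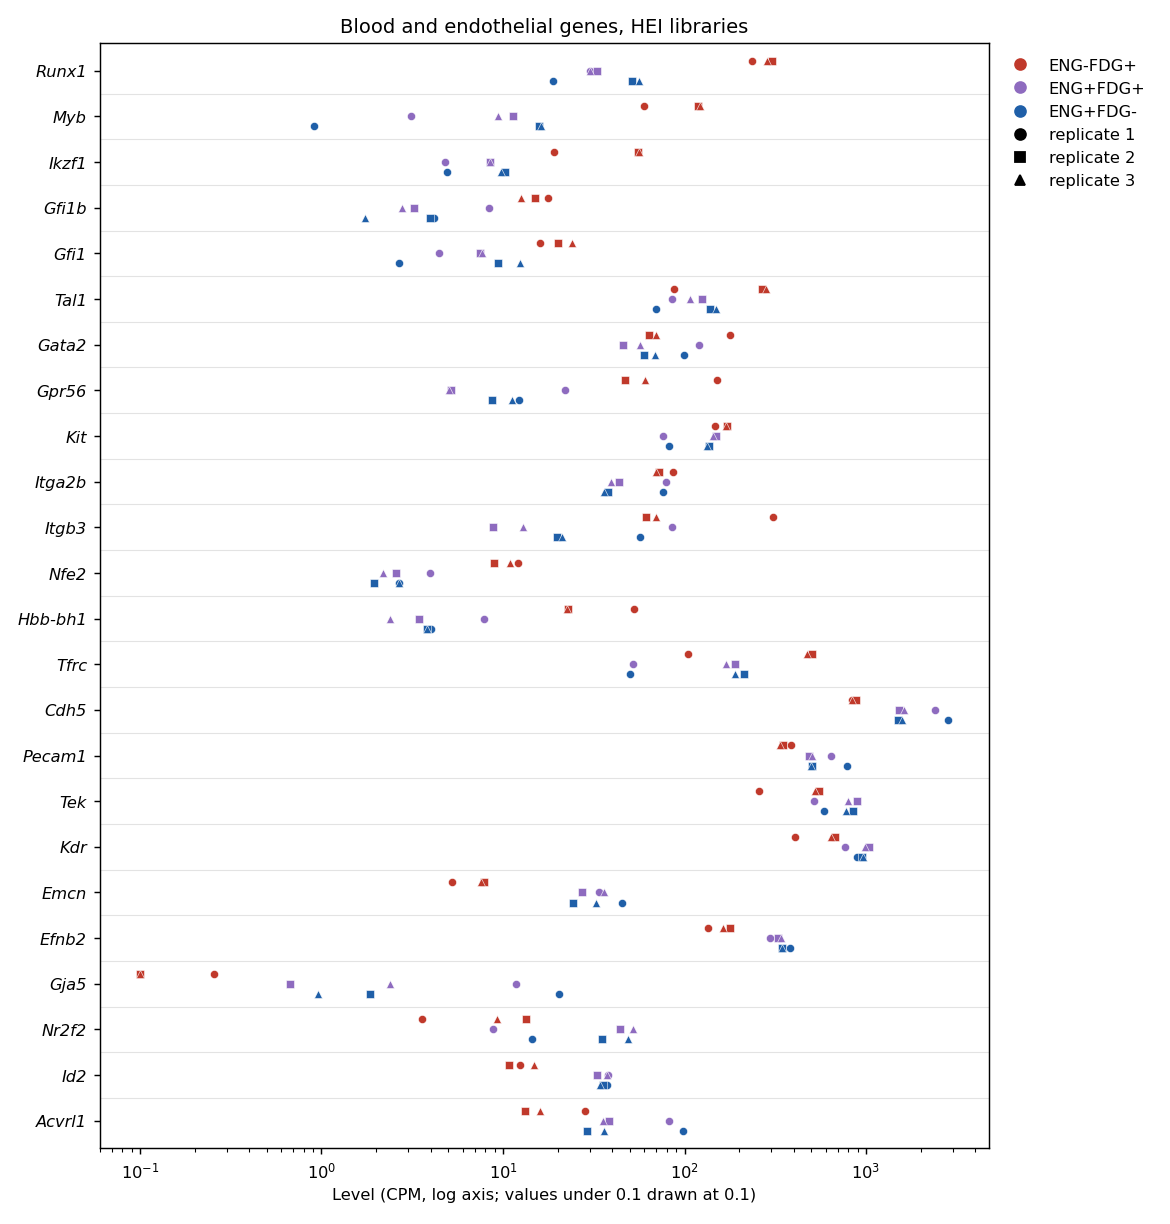
Levels of 24 blood and endothelial genes in CPM (log axis, values under 0.1 drawn at 0.1) in each library of the 3 HEI fractions, with colours for fractions and shapes for replicates. Runx1 lies at 234 to 302 CPM in ENG-FDG+ libraries and at 18.7 to 55.9 CPM in ENG+FDG- libraries, and the ENG+FDG+ libraries lie by the latter for most genes.

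The BMP and TGF-beta pathway, to which Endoglin belongs, had more falls than rises. Of 25 genes tested 9 fell, none rose and 16 did not pass (median −0.456), against 5.65% of all genes down and 5.44% up. The 9 include Eng, whose product was used for sorting, so its fall is not independent of the sort. When 1 library was left out 7 to 13 genes fell. Among receptors, Acvrl1, the endothelial type I receptor ALK1, stood at 28.4, 13.2 and 15.9 CPM against 98.5, 29.2 and 35.9 CPM and fell by 1.38 ± 0.20 (adjusted p = 0.000914; 0.439 without the block). Its fractions were 13.2 to 28.4 CPM and 29.2 to 98.5 CPM and did not overlap. The receptors Tgfbr2 and Bmpr2 also fell, while Tgfbr1 (0.16, adjusted p = 0.551) and Bmpr1a (−0.30, adjusted p = 0.159) did not pass. Of the ligands, Bmp6 stood at 57.6, 52.5 and 52.5 CPM against 207, 112 and 117 CPM and fell by 1.37 ± 0.20 (adjusted p = 0.00107; 0.0709 without the block), while Bmp4 (0.23, adjusted p = 0.655) and Bmp2 (0.31, adjusted p = 0.139) did not pass. Exons of Acvrl1 and Bmp6 each overlap those of another gene on the other strand.

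Of genes downstream of the receptors, Id1, Id2, Id3 and Smad6 fell, and Id4, Smad7, Smad9 and Bambi did not pass. Id2, an inhibitor of bHLH factors and a direct target of BMP signalling, stood at 12.4, 10.8 and 14.7 CPM against 37.2, 35.4 and 34 CPM and fell by 1.51 ± 0.21 (adjusted p = 0.000743; 0.0453 without the block). Its libraries lay within a narrow range in each fraction, replicate 1 included. Id1 went from 196, 19.2 and 19.8 CPM to 102, 11 and 9.37 CPM and Id3 from 198, 51 and 49.9 CPM to 117, 28.5 and 27.4 CPM. Unlike Id2, both genes overlapped between the fractions, with replicate 1 the highest library of each. Smad6 encodes an inhibitory SMAD. The calls of Smad6 and Bmpr2 ended without several of the 6 libraries, and the other 7, Eng among them, were called without each of them.

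Lrp2, the large endocytic receptor megalin that the study's title names, stood at 45.1, 11.3 and 22.1 CPM in ENG-FDG+ and at 3.46, 4.05 and 7.45 CPM in ENG+FDG- cells. The fractions did not overlap, with the gap between 7.45 and 11.3 CPM. Lrp2 rose by 2.21 ± 0.46, 4.63-fold (adjusted p = 0.00881; 0.162 without the block and 0.0523 without ENG+FDG- replicate 1). The study chose this gene, so its rise is not independent evidence. Reln, the secreted ligand reelin of the related receptors VLDLR and APOER2 (Lrp8), stood at 18.3, 92.5 and 78.7 CPM against 1.33, 7.31 and 6.32 CPM and rose by 3.64 ± 0.35, 12.5-fold (adjusted p = 9.2e-05; 0.0453 without the block). Its lowest ENG-FDG+ library, replicate 1, was above all ENG+FDG- libraries. Exons of Reln (chr5:21884454-22344702, minus strand, GRCm38) overlap those of Gm10475 on the other strand.

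Of the 17 genes of the LDL receptor family and its partners 15 were tested, 2 rose, 2 fell and 11 did not pass (median −0.098), against 5.44% up and 5.65% down over all genes. The 2 receptors of reelin were among those that did not pass: Lrp8 stood at 33.6, 56.4 and 65.3 CPM against 52.3, 44.2 and 48.9 CPM and Vldlr at 15.9, 7.79 and 5.79 CPM against 7.22, 10.8 and 11.3 CPM. Dab2, an endocytic adaptor of megalin, stood at 116, 35.3 and 42.3 CPM against 219, 122 and 141 CPM and fell by 1.36 (adjusted p = 0.0367). Among the fits with 1 library left out, this call held only without ENG-FDG+ replicate 1. Cubn, the co-receptor cubilin, stood at 2.97, 5.1 and 5.11 CPM against 10.4, 11.1 and 11.2 CPM (−1.36, adjusted p = 0.053). The other gene that fell was the Wnt co-receptor Lrp5 (−0.56, adjusted p = 0.0173), a call that ended without ENG+FDG- replicate 1 or 3.

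Among the 10 largest rises, Slc7a8, the amino acid transporter LAT2, was apart between the fractions in every library. It stood at 42.8, 29.2 and 40.8 CPM against 1.15, 2.47 and 4.94 CPM and rose by 3.75 ± 0.40, 13.4-fold (adjusted p = 0.000128; 0.0103 without the block), and by 4.47 without ENG+FDG- replicate 3. Nrip3 stood at 24.4, 43.9 and 40 CPM against 0.121, 3.61 and 2.86 CPM and rose by 4.20 ± 0.57 (adjusted p = 0.000743; 0.0612 without the block), and by 3.59 without ENG+FDG- replicate 1. Both genes were apart in all libraries, and Nrip3 had 2 reads in ENG+FDG- replicate 1. Vgll3, a cofactor of TEAD transcription factors, stood at 28.8, 4.42 and 8.26 CPM against 1.03, 0.705 and 1.39 CPM and rose by 3.57 ± 0.58 (adjusted p = 0.00194; 0.0453 without the block), and by 2.51 without ENG-FDG+ replicate 1. Rpph1, the RNA of ribonuclease P, stood at 119, 1.83 and 1.36 CPM against 2.37, 0.705 and 0.346 CPM (4.08 ± 0.72, adjusted p = 0.00355; 0.479 without the block). The fractions of Rpph1 overlapped, its difference was 3.05 without ENG-FDG+ replicate 1 and 1.97 without ENG+FDG- replicate 1, and its short gene lies within exons of Ccnb1ip1, so that its reads are uncertain.

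Among the 10 largest falls, Pdlim3, a PDZ and LIM domain protein of the actin cytoskeleton, stood at 19, 9.04 and 5.2 CPM against 221, 96 and 70 CPM. Its fractions were far apart and it fell by 3.54 ± 0.25, 11.7-fold (adjusted p = 9.39e-06; 0.0566 without the block). S100a16, a calcium-binding protein, stood at 0.679, 0.769 and 1.02 CPM against 17, 6.87 and 7.19 CPM and fell by 3.50 ± 0.47 (adjusted p = 0.000523; 0.0453 without the block). Mamld1, which carries a mastermind-like domain, stood at 2.29, 1.06 and 1.53 CPM against 13.4, 7.49 and 10 CPM and fell by 2.69 ± 0.34 (adjusted p = 0.000386; 0.0845 without the block). All 3 genes were apart between the fractions. Tmem255a, a membrane protein gene whose exons overlap those of Zbtb33, fell by 2.55 ± 0.39 (adjusted p = 0.00146; 0.106 without the block), from 21.6, 5.38 and 5.98 CPM to 2.63, 0.769 and 1.7 CPM. Nr5a2, the nuclear receptor LRH-1, stood at 0, 1.73 and 1.45 CPM against 15.7, 8.81 and 8.57 CPM (−3.27 ± 0.93, adjusted p = 0.0406). Among the fits with 1 library left out, its call held only without ENG-FDG+ replicate 1. Of the 20 genes, 8 also passed without the block: Slc7a8, Reln, Actc1, Vgll3, Postn, S100a16, Clec1a and Clec14a.

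**Figure D3:**
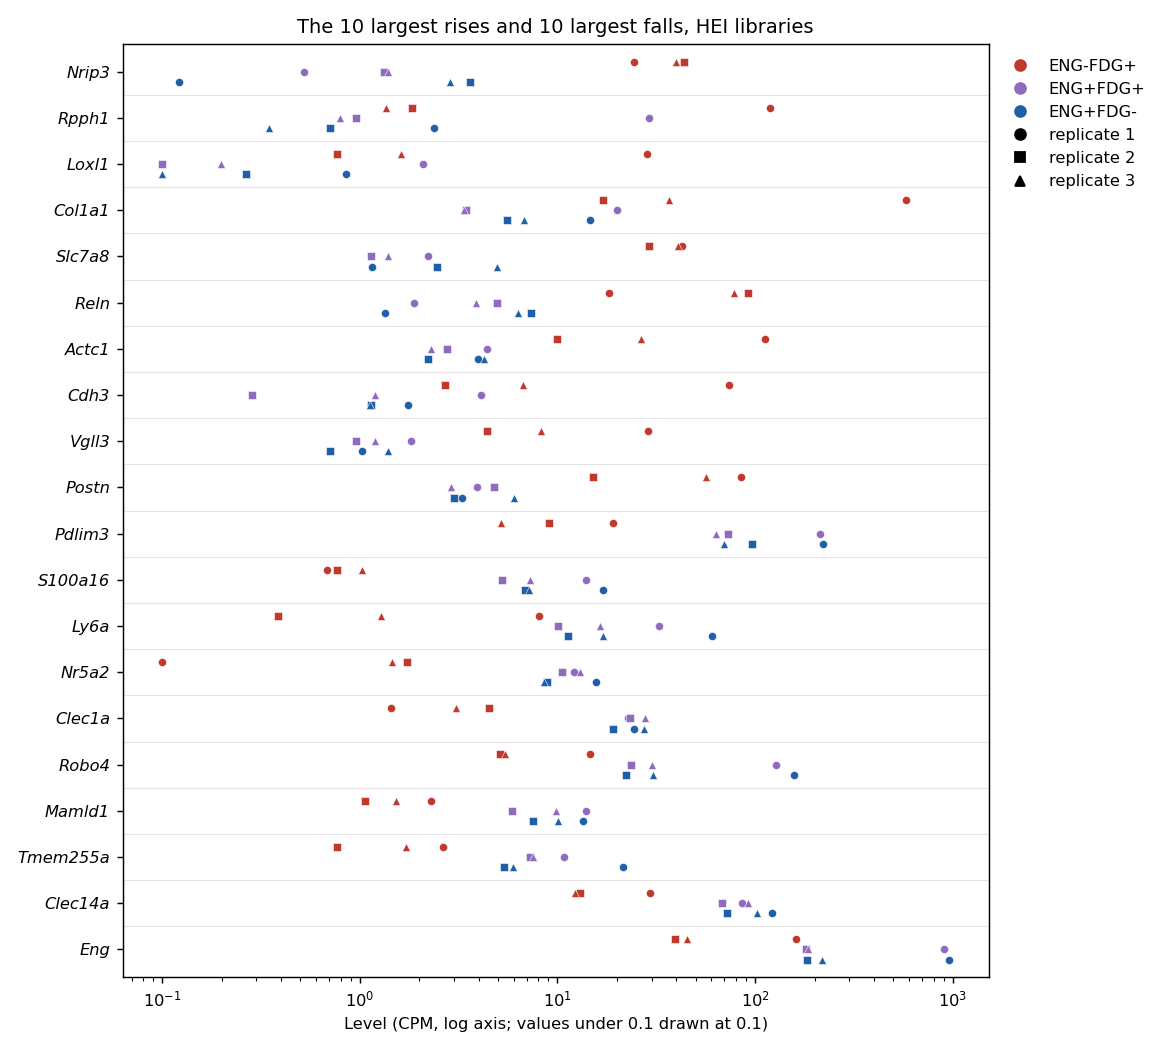
Levels in CPM (log axis, values under 0.1 drawn at 0.1) of the 10 largest rises and 10 largest falls in each library of the 3 HEI fractions, with colours for fractions and shapes for replicates. Slc7a8, at 29.2 to 42.8 CPM in ENG-FDG+ and 1.15 to 4.94 CPM in ENG+FDG- libraries, does not overlap, while Col1a1 reaches 580 CPM in ENG-FDG+ replicate 1 against 17 and 36.8 CPM in its other replicates.

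Several genes of matrix, smooth muscle and epithelium were highest in a single library, ENG-FDG+ replicate 1. Col1a1, the collagen I chain, stood at 580, 17 and 36.8 CPM against 14.7, 5.55 and 6.75 CPM (3.82 ± 0.99, adjusted p = 0.0325), and without ENG-FDG+ replicate 1 the difference was 1.73 (adjusted p = 0.118). Loxl1, which crosslinks elastin, stood at 28.3, 0.769 and 1.62 CPM against 0.849, 0.264 and 0.0866 CPM (3.94 ± 0.88, adjusted p = 0.0125), and without that library the difference was 2.42 (adjusted p = 0.0735). Acta2, smooth muscle actin, stood at 3602, 202 and 477 CPM against 324, 158 and 160 CPM (1.95 ± 0.53, adjusted p = 0.0342), and without it 1.06 (adjusted p = 0.166). In all 3 genes replicate 1 was far above the other ENG-FDG+ libraries, and their calls also ended without ENG+FDG- replicate 1 or 3. Postn, the matrix protein periostin, stood at 85.4, 15.1 and 56.3 CPM against 3.28, 3 and 6.06 CPM and rose by 3.50 ± 0.48 (adjusted p = 0.000743; 0.0453 without the block), with no library whose removal ended the call.

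Set beside the 2 lists of this paragraph, 5.44% of all genes rose and 5.65% fell. Of 25 smooth muscle and mesenchymal genes 22 were tested, 6 rose, 2 fell and 14 did not pass. Their median difference was 2.4 in the replicate 1 pair, 0.037 in the replicate 2 pair and 0.873 in the replicate 3 pair. Without ENG-FDG+ replicate 1, 1 of them rose and 3 fell, without ENG-FDG+ replicate 2, 13 rose, and without ENG+FDG- replicate 1, 2 or 3, 1, 3 or 1 rose. The 2 that fell in the full fit were Fbn1, fibrillin 1, from 1660, 1192 and 1275 CPM to 548, 741 and 761 CPM, and Vim, the filament protein vimentin, from 7315, 3515 and 3642 CPM to 3399, 1989 and 2046 CPM. Neither gene overlapped between the fractions. Of 14 genes of endoderm and epithelium 6 were tested, and 4, Krt8, Krt18, Krt19 and Epcam, rose. Summed over the whole list, the level was 740, 38.6 and 76.9 CPM in ENG-FDG+ against 45.6, 24.7 and 25 CPM in ENG+FDG- libraries, and Alb, Ttr, Apoa2 and Hnf4a had no read in either fraction. Krt18 stood at 372, 14.1 and 24.6 CPM against 14, 5.99 and 7.71 CPM (2.98 ± 0.66, adjusted p = 0.0138; 1.61 without ENG-FDG+ replicate 1) and was also higher in replicates 2 and 3 alone (adjusted p = 0.000295). Without ENG+FDG- replicate 1 none of the 4 was called, without its replicate 3, 1 was, and without ENG-FDG+ replicate 1, 2 were. The part of other cells in ENG-FDG+ replicate 1 in these results was not tested.

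Cardiac genes went both ways, with 3 of 22 up and 3 down, against 5.44% of all genes up and 5.65% down. Without ENG-FDG+ replicate 1, 1 rose and 5 fell, and without ENG+FDG- replicate 1, 0 rose and 2 fell. Actc1, cardiac alpha-actin, stood at 112, 9.91 and 26.6 CPM against 3.94, 2.2 and 4.24 CPM and rose by 3.60 ± 0.65 (adjusted p = 0.00501; 0.0453 without the block and 0.0535 without ENG+FDG- replicate 1), and by 2.29 without ENG-FDG+ replicate 1. Gata4, a factor of heart and endoderm, stood at 35.2, 41.5 and 32.6 CPM against 207, 90.5 and 96 CPM and fell by 1.74 ± 0.25 (adjusted p = 0.000866; 0.0797 without the block). The fractions of both genes did not overlap. Hand2, another heart factor, also fell by 1.01 ± 0.17 (adjusted p = 0.00222; 0.579 without the block), with overlapping fractions. Its exons overlap those of Hand2os1 on the other strand. Cdh3, the epithelial P-cadherin, stood at 74, 2.69 and 6.73 CPM against 1.76, 1.15 and 1.13 CPM and rose by 3.57 ± 0.68 (adjusted p = 0.00614; 0.181 without the block and 0.0614 without ENG+FDG- replicate 1), and by 2.24 without ENG-FDG+ replicate 1.

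**Figure D4:**
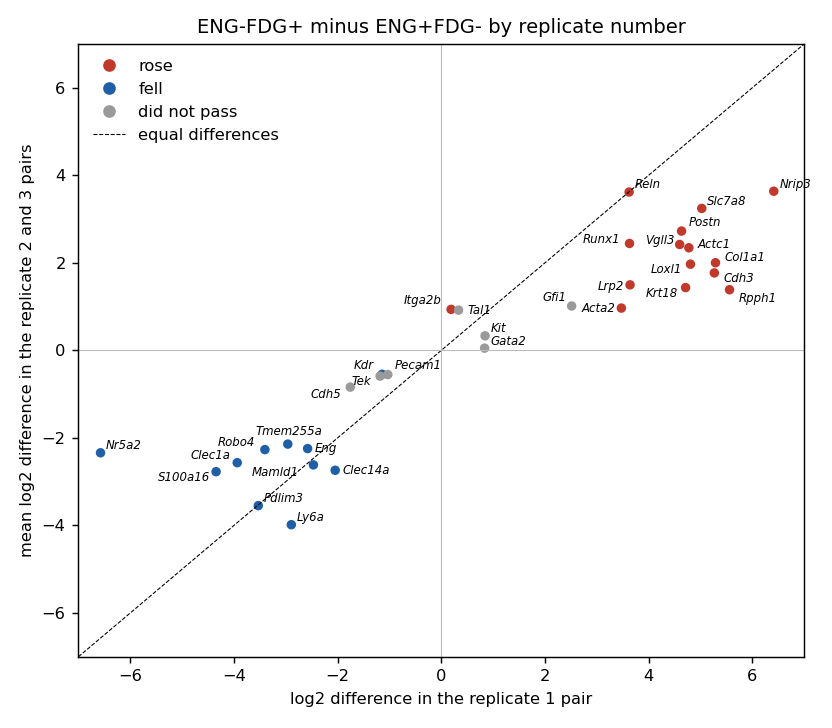
Log2 differences, ENG-FDG+ minus ENG+FDG-, in the replicate 1 pair (horizontal) and averaged over the replicate 2 and 3 pairs (vertical) for the 20 largest changes, the genes chosen by name, Acta2 and Krt18, with a dashed line where the 2 are equal. Reln, Pdlim3, Eng and Clec14a lie near the line, and Acta2, Krt18, Rpph1 and Nr5a2 lie far from it, with larger differences in the replicate 1 pair.

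Cell cycle genes differed between the pairs. Of 35 tested 7 rose, none fell and 28 did not pass, against 5.44% of all genes up and 5.65% down. Their median was −0.109 in the replicate 1 pair and 0.485 and 0.549 in the replicate 2 and 3 pairs. Mcm7, a subunit of the replicative helicase, stood at 160, 117 and 118 CPM against 112, 75.7 and 77 CPM and rose by 0.59 ± 0.10 (adjusted p = 0.00204; 0.599 without the block). Cdc6, which loads that helicase, stood at 59.2, 113 and 114 CPM against 51.9, 61.2 and 52.7 CPM and rose by 0.73 ± 0.16 (adjusted p = 0.00988), a call that ended without ENG+FDG- replicate 3. Mki67, a proliferation marker, stood at 719, 1120 and 1139 CPM against 773, 800 and 898 CPM (0.23, adjusted p = 0.257). In replicates 2 and 3 alone 27 of these genes rose and 3 fell, against 14.1% of all genes up and 14.6% down in that fit. Without the block none passed. Without ENG-FDG+ replicate 1, 17 rose, and without ENG+FDG- replicate 1, 2 or 3, 4, 4 or 3 rose.

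Of 13 immediate early genes 4 fell (Atf3, Dusp1, Klf2 and Jun), none rose and 9 did not pass, with a median of −0.607. Atf3, a stress-induced factor, stood at 57.2, 27.2 and 30.2 CPM against 199, 58.7 and 53.7 CPM (fell by 1.27 ± 0.19, adjusted p = 0.00124; 0.424 without the block), with replicate 1 high in each fraction. The counts of the immediate early list and of the next 4 lists stand against 5.44% of all genes up and 5.65% down. Of 16 genes of hypoxia and glycolysis 2 rose and 2 fell, and Egln3, an oxygen-sensing hydroxylase, rose (40.4, 63.5 and 74.9 CPM against 21.4, 38.7 and 45.5 CPM, adjusted p = 0.00124; 0.542 without the block). Of 10 paraxial and lateral mesoderm genes tested 1, the secreted Wnt amplifier Rspo3, rose (adjusted p = 0.0108), of 11 primitive streak genes 2 (Nkx1-2 and Evx1), and of 10 pluripotency genes 2 rose (Lin28a and Dppa5a) and 1, Klf4, fell. Without ENG+FDG- replicate 1 none of the mesoderm, primitive streak and pluripotency genes rose. Calls that held without each of the 6 libraries in turn were 2 of the 4 immediate early, 1 of the 4 hypoxia and 1 of the 3 pluripotency calls. None of the mesoderm and primitive streak calls did. Of 6 neural and ectodermal genes tested none passed. Rn45s (adjusted p = 0.198) and the nuclear RNA Malat1 (adjusted p = 0.53) did not pass.

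**Figure D5:**
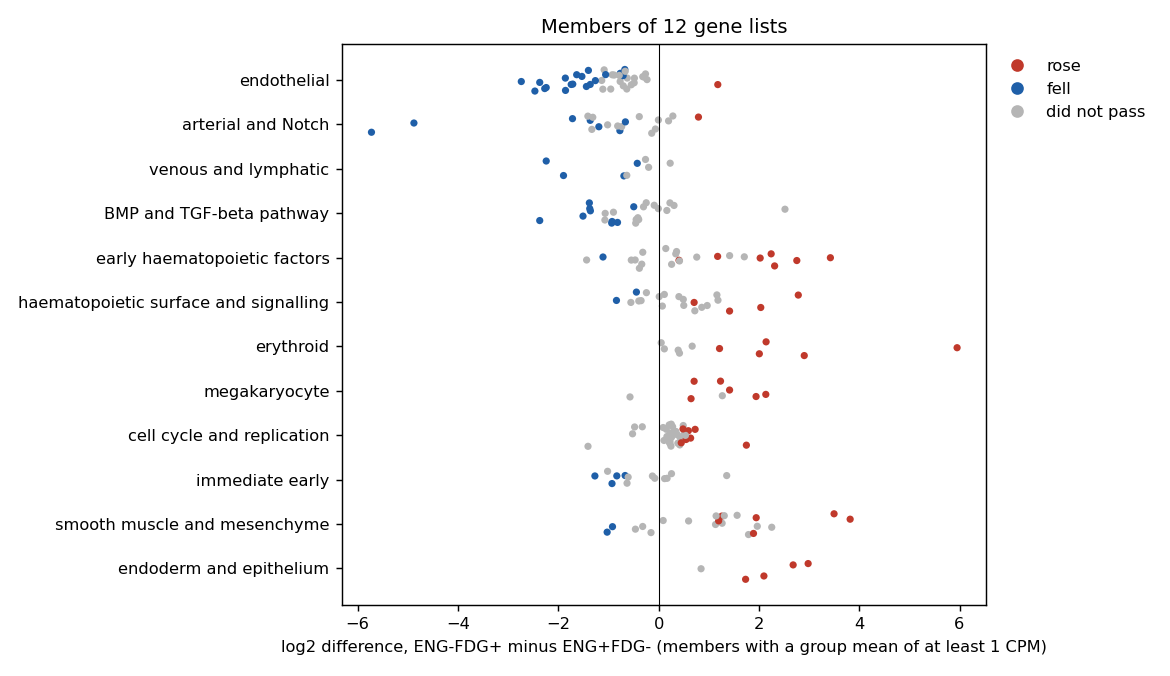
Log2 differences, ENG-FDG+ minus ENG+FDG-, of the members of 12 gene lists whose level averaged at least 1 CPM in either fraction, 1 point a gene, coloured by whether it rose, fell or did not pass. Endothelial genes lie below 0 except Etv2, while erythroid and megakaryocyte genes lie mostly above it.

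The ENG+FDG+ fraction, positive for both marks, shares 1 mark with each of the 2 fractions. Eng stood at 904, 180 and 186 CPM in it, by the 962, 184 and 218 CPM of ENG+FDG- cells, and Runx1 at 30.2, 33 and 30.3 CPM, by the 18.7, 51.6 and 55.9 CPM of ENG+FDG- cells. Slc7a8 stood at 2.21, 1.14 and 1.39 CPM, Reln at 1.89, 4.95 and 3.87 CPM and Pdlim3 at 214, 73.2 and 63.4 CPM. For each of these 5 genes the ENG+FDG+ libraries lay with the ENG+FDG- libraries and apart from the ENG-FDG+ libraries. Of the 20 largest changes 19 had a fitted ENG+FDG+ level nearer to ENG+FDG-, Rpph1 being the other, and of the 1515 genes that differed 1484 did. On a scale from 0 at ENG+FDG- to 1 at ENG-FDG+, the median place was 0.03 for the 20 genes and 0.047 for the 1515. The genes were chosen on 2 of the 3 fractions, so this is a description with no test.

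Measured against the mean of the other 2 fractions, 53 genes differed in ENG+FDG+ cells (0.388% of those tested), 31 higher (0.227%) and 22 lower (0.161%). This contrast uses the 6 libraries of the comparison above, and a gene at the ENG+FDG- level in ENG+FDG+ cells also differs from that mean, so a call here is not by itself particular to ENG+FDG+ cells. The fitted ENG+FDG+ level lay beyond both other fractions in 36 of them, above in 15 and below in 21. These counts compare fitted values only, and ENG+FDG+ was not tested against ENG+FDG- cells. Itsn1, among the 36, stood at 65.3, 62.1 and 59.3 CPM in ENG+FDG+ and at 66.2, 63.4 and 54.5 CPM in ENG+FDG- cells. Runx1 was lower than that mean (−1.74 ± 0.22, adjusted p = 0.00997), as were Ikzf2 (−1.32 ± 0.19, adjusted p = 0.0152) and Lgr5, the R-spondin receptor, (−1.84 ± 0.20, adjusted p = 0.00272). Stab1, a scavenger receptor of endothelium, was higher by 1.15 ± 0.16 (adjusted p = 0.0152), at 87.2, 25.1 and 25.7 CPM against 99.6, 16.5 and 20.4 CPM in ENG+FDG- and 20, 6.06 and 6.3 CPM in ENG-FDG+ cells. For Runx1, Ikzf2, Lgr5 and Stab1 the ENG+FDG+ and ENG+FDG- libraries overlapped. Without the block no gene passed this test and 1565 had an unadjusted p under 0.05 with it, DESeq2 called 283 and a test against a 1.5-fold change 1. Without ENG-FDG+ replicate 1, 2 or 3, 195, 45 or 11 genes passed, without ENG+FDG- replicate 1, 2 or 3, 101, 3 or 4, and without ENG+FDG+ replicate 1, 2 or 3, 19, 2 or 1.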

How the data were processed

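RNA was taken from sorted differentiated mouse embryonic stem cells and amplified with a Nugen kit before Illumina library construction, per the labels' protocols. The authors deposited 1 table of read counts per gene for 15 libraries, and the submitters' processing notes name STAR 2.4.0, HTSeq 0.6.1 and the build mm10. The strand setting is not given in the sources used here. Of 24061 lines, 27 carried a date in place of a gene symbol (0.269% of counts) and were left out. Of the 24034 symbols kept, 22723 are gene names of GENCODE M21 (GRCm38), which gave positions and overlaps.

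Counts were analysed as deposited in R 4.3.3 with edgeR 4.0.16 (limma 3.58.1). Genes passing filterByExpr (13662) were normalized by TMM and tested by the quasi-likelihood test with robust dispersion, group means and the replicate number as a block over all 15 libraries (residual df 8), with Benjamini-Hochberg adjustment over all genes tested. The same fit gave the contrast of ENG+FDG+ with the mean of the other 2 HEI fractions. CPM used TMM-scaled library sizes. The scripts were tested on simulated data. The labels number replicates 1 to 3 in each fraction, and the comparison was defined as paired by these numbers. Deviations from the group means correlated between same-numbered libraries at 0.634, 0.532 and 0.501 over 13662 genes. Between libraries of different number the correlation was −0.598 to 0.494. It was −0.548 to −0.541 for replicate 1 and reached 0.494 for replicate 2 and 0.473 for replicate 3. These values set replicate 1 apart and cannot show that replicates 2 and 3 are matched by number.

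The comparison and all 21 gene lists (384 genes, 319 tested) were chosen with earlier results of these data known. Genes named were the 10 largest rises and 10 largest falls with the same sign in 3 pairs and at least 10 CPM in the higher group (gene models without a proper name were passed over), 12 genes chosen by name, and up to 4 members of each list by size of change with at least 5 CPM. Other genes named, such as Etv2, Ikzf2, Lmo2, Mecom, Gata1, the receptors and ligands of the BMP list beyond Acvrl1 and Bmp6, Lrp8, Vldlr, Cubn, Fbn1, Vim, Mki67, Lgr5 and Stab1, were chosen after their values were seen. The alternatives were DESeq2 1.42.0, its size factors, other filters, other sets of libraries, a test against a 1.5-fold change, no block, and each library left out. Promoter sequences are from RefSeq (GRCm38.p6), in which 10170 of the tested genes have an entry.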

Additional observations from a re-analysis of the deposited data

How the results depend on the processing

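Of the 1515 genes called, the count was 48 without the replicate block, so the number of calls depends on the pairing. It was 208 with only the 6 libraries compared, 201 in a test against a 1.5-fold change and 3822 in replicates 2 and 3 alone, and ranged from 537 to 1741 when 1 library was left out. The split of 743 up and 772 down was 683 and 847 with other size factors, 52 and 156 with only the 6 libraries compared, 75 and 126 in the 1.5-fold test and 258 and 413 without ENG+FDG- replicate 3. For the ENG+FDG+ fraction against the mean of the other 2, 53 genes were called, 0 without the replicate block, 283 by DESeq2, 1 in the test against a 1.5-fold change, 2135 in replicates 2 and 3 alone, and 1 to 195 when 1 library was left out. That contrast was not run with only the 6 libraries compared, which hold no ENG+FDG+ library. Over the 88 genes named by rule and their alternatives (1314 values), 1028 kept their direction and their side of the threshold, 268 kept the direction and lost the call, 16 gained it and 2 reversed. The reversals were Rn45s, at −0.063 in replicates 2 and 3 alone, and Malat1, at −0.058 without ENG-FDG+ replicate 1 (up to 0.457, without ENG-FDG+ replicate 3), and neither gene was called in the full fit. The cause of these shifts was not tested. A gene with no read could still hold 0.182 to 0.289 CPM in these libraries, which limits statements on genes such as Ptprc, Klf1 and Pf4.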

Other observations

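Of the 1515 genes, 46 were called in the paired fit, without the block, in replicates 2 and 3 alone and without each of the 6 libraries in turn, 19 higher and 27 lower in ENG-FDG+ cells. The genes named here were chosen from these after their values were seen, and all adjusted p values are from edgeR. Lgr5, a receptor for R-spondins that potentiates Wnt signalling, stood at 6.7, 12.7 and 13 CPM in ENG-FDG+ and at 0.91, 1.41 and 1.65 CPM in ENG+FDG- cells and rose by 3.01 ± 0.18 (adjusted p = 2.3e-06; 0.0103 without the block). The fractions of Lgr5 were far apart, and the ENG+FDG+ libraries stood at 0.65, 1.14 and 1.39 CPM. Mfsd2b, a sphingosine 1-phosphate exporter of red cells and platelets, rose by 2.89 ± 0.36 (18.8, 11.8 and 13.2 CPM against 2.06, 2.47 and 1.3 CPM, adjusted p = 0.000386; 0.0248 without the block). Sall3, a zinc finger factor, rose by 1.57 ± 0.14 (72.2, 62.6 and 55 CPM against 20.6, 23.6 and 19.6 CPM, adjusted p = 3.36e-05; 0.0105 without the block).

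Ptprj, a receptor-type tyrosine phosphatase, rose by 1.64 ± 0.21 (adjusted p = 0.000485; 0.0252 without the block), from 5.34, 9.52 and 7.45 CPM to 27.6, 19.5 and 22.1 CPM. Ptprm, an adhesive phosphatase of endothelium, fell by 1.63 ± 0.18 (adjusted p = 0.000128; 0.0105 without the block), from 240, 184 and 166 CPM to 49, 73.9 and 66.6 CPM. Gap43, a growth-associated membrane protein, fell by 1.79 ± 0.18 (adjusted p = 9.2e-05; 0.0453 without the block), from 376, 233 and 254 CPM to 91.7, 78.1 and 75.5 CPM. In each of these 3 genes the fractions did not overlap.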
